A study of Rattus norvegicus with 18 samples.

Results

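Late fracture healing was compared with early healing in the femur of adult rats. The comparison took 4 of the 18 arrays at hand, all from adult rats and chosen by their titles. The arrays of 4 weeks and 6 weeks after fracture (late) were set against those of 3 days and 1 week (early), and the adult arrays of 2 weeks and of no fracture are shown for reference. mRNA expression is given across all probe sets that were bright enough to be tested, 4669 of 8799.

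A broken long bone first forms a blood clot that is invaded by inflammatory cells. Fibrous tissue and cartilage then fill and surround the gap and are replaced by woven bone, which osteoclasts and osteoblasts remodel afterwards. The marrow inside the shaft, which makes red cells, granulocytes, and B cells, is damaged by the break and by the rod and refills during healing.

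The rats were intact female Sprague-Dawley rats, 26 weeks old at fracture (adult), with a simple femoral fracture at mid-shaft held by an intramedullary rod. Young and older rats were 6 and 52 weeks old. The RNA came from a segment of the femur centered on the fracture, with external callus, cortical bone, and marrow, and each array received the pooled RNA of 2 rats. Each age and time had 1 array among the 18 at hand, whose titles all carry the label Series 1. The paper hybridized further arrays for each age and time, which were not used here. The late and the early group therefore each held 2 arrays of different times. The error contains any change between 3 days and 1 week or between 4 and 6 weeks. In such whole segments, fewer cells of a type and less RNA per cell cannot be told apart.

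Signals are intensities in arbitrary units that were brought to a common average of 500. The median signal of the 6 adult arrays lay between 137.2 and 157.1, and 40.4% to 43.3% of their signals fell below 100, the floor to which lower signals were raised before log2. Gapdh, whose 5' end gives less signal than its 3' end where RNA is degraded, had a 5' to 3' ratio of 0.650 to 0.857 on the 6 adult arrays. The lowest was the 1 week array, which also had the lowest ratio for actin, 0.372, against 0.496 to 0.661 on the other 5, and the part of this in the results was not tested. The ratio for Gapdh was 0.257 on the young 6 weeks array, which enters the estimate of error and the comparison with young rats. Bglap, the osteocalcin gene of osteoblasts, was bright on all 6 adult arrays (5206.8 to 20276.5). So was Ckm, the creatine kinase of skeletal muscle (10133.1 to 49236.2), a tissue that the description of the segment does not name.

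Between early and late healing 95 probe sets were up-regulated and 35 were down-regulated in the adult rats, by limma with a Benjamini-Hochberg adjusted p under 0.05. These were 2.03% and 0.750% of the probe sets tested, and at an unadjusted p under 0.05 the counts were 483 and 431. Both late arrays lay above both early arrays for 1214 probe sets (26.0%) and below them for 1132 (24.2%). The 95 carried 60 gene symbols and the 35 carried 28. The up-regulated genes included immunoglobulin, red cell, mast cell, neutrophil, and muscle genes, and the down-regulated genes included those of fibrous and cartilage matrix.

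The calls depended on single arrays. Leaving out the 3 days array gave 49 and 8, leaving out the 1 week array 189 and 150, leaving out the 4 weeks array 48 and 15, and leaving out the 6 weeks array 36 and 2. The lone array of a group was then assumed to vary like the arrays of other groups. Of the 95 up-regulated probe sets 31 were called in all 4 of these fits and 5 in none, and of the 35 down-regulated ones 2 were called in all and 8 in none. None of the 130 changed sign. Where both early signals lay under the floor, leaving out an early array could not change the difference, so such fits say little about that array. Leaving out the young 6 weeks array, which enters only the estimate of error, gave 81 and 16. Leaving out its partner, the young 4 weeks array, removes the same pair from the error. These counts therefore do not set the young 6 weeks array apart. For all probe sets tested, the median size of the difference between 3 days and 1 week was 0.503 on the log2 scale, against 0.266 between 4 and 6 weeks. The median size of the difference between the late and the early mean was 0.42 for the same probe sets.

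The called red cell genes were low at 3 days, 1 week, and 2 weeks and within 1 on the log2 scale of the no fracture level in the mean of 4 and 6 weeks. Of 11 genes tested from a list of red cell genes 5 were up-regulated late, where 2.03% of all probe sets were, and none was down-regulated. The median of the 11 late minus early differences was 1.62 on the log2 scale, against 0.00 for all probe sets. For each of the 11 (100%, against 26.0% of all probe sets), both late arrays lay above both early arrays.

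Hba-a3, an alpha globin gene, had a signal of 6629.1 with no fracture, 173.8 at 3 days, 317.4 at 1 week, 222.1 at 2 weeks, 4400.5 at 4 weeks, and 7392.5 at 6 weeks. The early arrays were low, and the groups were far apart. The difference was 24.3-fold (log2 difference 4.60 ± 0.48 SE, adjusted p = 3.51e-04 by limma). Slc4a1 encodes band 3, the anion exchanger of the red cell membrane. Its signals were 3358.5, 130.5, 191.6, 183.7, 2517.1, and 1949.2 in the same order, a 14-fold rise (3.81 ± 0.39, limma adjusted p = 3.51e-04). A dimmer Slc4a1 probe set gave 1.26 and was not called (limma adjusted p = 0.163).

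Alas2, which starts heme synthesis in red cell precursors, had signals of 10014.2, 332.5, 691.9, 705.1, 4899.9, and 5928.3. The rise was 11.2-fold (3.49 ± 0.52, limma adjusted p = 0.0038), and without the 6 weeks array the adjusted p was 0.0638. Both beta globin probe sets moved alike. Hbb went from 40558.5 with no fracture to 4574.8 and 6830.3 early, 6764.6 at 2 weeks, and 31118.4 and 37472.2 late (2.61 ± 0.35, limma adjusted p = 0.00209). Hbb-b1 rose by 2.59 ± 0.40 (limma adjusted p = 0.00503), with an adjusted p of 0.0777 without the 6 weeks array, and probes for these near-identical genes may share transcripts.

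The other 6 members were not called. Gata1, a transcription factor of red cell and mast cell precursors, had 526.1 with no fracture and 237.3 and 296.4 late, against signals under the floor on both early arrays (1.41 ± 0.52, limma adjusted p = 0.178). Rhag and Urod gave 1.62 and 1.10, with limma adjusted p-values of 0.0696 and 0.0811. Tfrc, the transferrin receptor, was 540.8 at 4 weeks and 154.5 at 6 weeks, so its late arrays disagreed.

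GATA factors bind short sites with the core letters AGATAA. The 250 bases before the start of the genes were read from RefSeq promoters of the GRCr8 assembly, with the letters searched on both strands (AGATAA or TTATCT). Of the 5 red cell list members called, 4 had a promoter in the table and 1 held the motif. Of the 4 mast cell list members described below, 4 had one and 2 held it. It stood in 10.3% of all 33469 promoters in the table and in 7 of 43 (16.3%) of the up-regulated genes with an entry. The 3 promoters with a match are shown 5' to 3' along the gene, with the motif in capitals, since they belong to genes that rose late. The match lay 136 bases before the start in Alas2 (chrX:22895200-22895449, plus strand), 64 in Cma1 (chr15:33390134-33390383, minus strand), and 55 in Cpa3 (chr2:104673238-104673487, minus strand). A match of these letters describes the sequence and is not evidence of binding.
Alas2: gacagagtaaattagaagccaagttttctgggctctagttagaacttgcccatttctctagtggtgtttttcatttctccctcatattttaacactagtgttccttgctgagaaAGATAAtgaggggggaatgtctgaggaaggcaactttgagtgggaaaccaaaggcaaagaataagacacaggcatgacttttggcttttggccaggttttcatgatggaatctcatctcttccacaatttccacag
Cma1: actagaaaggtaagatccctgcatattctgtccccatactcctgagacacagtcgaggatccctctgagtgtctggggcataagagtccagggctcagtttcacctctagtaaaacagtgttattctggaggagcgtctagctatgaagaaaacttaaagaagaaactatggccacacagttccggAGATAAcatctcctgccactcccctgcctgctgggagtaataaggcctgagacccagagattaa
Cpa3: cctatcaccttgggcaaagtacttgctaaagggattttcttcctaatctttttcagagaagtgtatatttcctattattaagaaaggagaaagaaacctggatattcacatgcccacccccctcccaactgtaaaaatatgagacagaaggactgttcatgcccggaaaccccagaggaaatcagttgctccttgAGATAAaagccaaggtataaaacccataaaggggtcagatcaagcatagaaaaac

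Immunoglobulin probe sets were among the largest rises, and the 11 described as such ended above the no fracture level. The annotation gave no single symbol for 25 of the 95 up-regulated probe sets, and the probe descriptions of the study name 11 of these as immunoglobulin. Such descriptions were at hand only for probe sets that the study had listed, so other immunoglobulin probe sets could not be counted. The highest difference of all was in a probe set with no symbol or description here, with 115.6 and 421.5 early and 9093.0 and 28077.9 late (6.18 ± 0.84, limma adjusted p = 0.00217). Another without either rose by 5.46 ± 0.63 (limma adjusted p = 7.88e-04).

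For 9 probe sets described as the constant region of the kappa light chain, the rise was 2.90 to 5.67 on the log2 scale, with a median of 3.95 and limma adjusted p-values of 7.96e-05 to 0.00649. These probe sets come from near-identical sequences and are not independent. Their signals were 7.3 to 126.3 at 3 days, 37.6 to 240.0 at 1 week, 115.9 to 303.8 at 2 weeks, 624.4 to 3302.0 at 4 weeks, and 1008.4 to 7867.6 at 6 weeks, against 486.0 to 2362.4 with no fracture. Each of the 9 was low on the early arrays and higher at 6 than at 4 weeks. The mean of the late arrays stood above the no fracture array by 0.60 to 1.11 on the log2 scale. Without the 3 days array or the 6 weeks array, 1 of the 9 was no longer called (limma adjusted p = 0.0595 and 0.115).

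A probe set for the gamma-2a heavy chain had 1172.1 with no fracture, 4.8 at 3 days, 18.6 at 1 week, 38.9 at 2 weeks, 2133.9 at 4 weeks, and 8136.6 at 6 weeks. This was a rise of at least 41.7-fold (5.38 ± 0.63, limma adjusted p = 8.76e-04), since both early signals lay under the floor of 100. Ighvl1, a heavy chain variable segment, went from 273.2 with no fracture to 33.8 and 62.4 early, 56.1 at 2 weeks, and 2034.6 and 2389.3 late. Its rise was at least 22.0-fold (4.46 ± 0.25) with the lowest adjusted p among all probe sets, 5.08e-06 by limma, and the late arrays stood 3.01 on the log2 scale above the no fracture array. Unlike the kappa chain probe sets, its 4 and 6 weeks arrays were nearly level in this probe set. A second, dimmer Ighvl1 probe set rose by 2.64 ± 0.38 (limma adjusted p = 0.00313), with 1183.1 at 4 weeks and 653.3 at 6 weeks. The late arrays of that probe set stood 1.66 on the log2 scale above the no fracture array.

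Cd72, Cd79b, and Cd37, surface genes of B cells, rose as well. Cd72, a receptor on B cells, had 573.8, 83.2, 99.5, 147.4, 896.9, and 1119.4 from no fracture to 6 weeks, a rise of at least 10-fold (3.32 ± 0.32, limma adjusted p = 2.35e-04). Cd79b, part of the B cell receptor, had 280.8, 110.6, 54.5, 52.6, 593.7, and 608.5 (at least 5.72-fold, 2.51 ± 0.28, limma adjusted p = 5.57e-04). Among the 4 fits that left out an array, the difference of Cd72 was 3.48 without 4 weeks and 3.16 without 6 weeks. Leaving out either early array could not change its 3.32, as both early signals lay under the floor. Cd37, a tetraspanin of B cells, rose from 243.8 and 275.6 to 812.6 and 776.8 (1.62 ± 0.34, limma adjusted p = 0.0269), and was called only without the 1 week array among those fits.

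Cd79b and Cd37 were the 2 members called of 12 lymphocyte genes tested, where 2.03% of all probe sets were up-regulated. The median difference of the 12 was 0.57. The T cell genes of the list were not called. Lck, a kinase of T cells, had 426.4 and 468.4 early and 604.7 and 657.3 late (0.50 ± 0.25, limma adjusted p = 0.291), and Cd3g, part of the T cell receptor complex, gave 0.58 ± 0.35 (limma adjusted p = 0.381).

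Of 6 mast cell genes tested 4 were up-regulated, where 2.03% of all probe sets were, with a list median of 1.71. All 4 encode proteases. The mean of their late arrays stood above the no fracture array by 0.92 to 2.13 on the log2 scale. Cma1, a chymase, had 920.1 with no fracture, 138.3 at 3 days, 352.5 at 1 week, 391.3 at 2 weeks, 2199.4 at 4 weeks, and 1877.1 at 6 weeks (9.20-fold, 3.20 ± 0.47, limma adjusted p = 0.00348). Tpsab1, a tryptase, had 200.1, 120.1, 228.2, 191.9, 940.4, and 718.3 (2.31 ± 0.33, limma adjusted p = 0.00313). Both early arrays and the 2 weeks array were low for both genes. Cma1 and Tpsab1 were called in all 4 fits without an array.

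Cpa3, the mast cell carboxypeptidase A, had 69.2 with no fracture, 47.3 and 107.9 early, and 555.4 and 346.7 late (at least 4.22-fold, 2.08 ± 0.33, limma adjusted p = 0.00526). Without the 4 weeks array its adjusted p was 0.0726. Tpsb2, another tryptase, had the smallest rise of the 4 (1.34 ± 0.28, limma adjusted p = 0.0286) and was called only when the 1 week array was left out, of the 4 arrays. The 2 other members encode subunits of the IgE receptor. Fcer1a was under 100 on all 6 adult arrays, and Ms4a2 was above 100 only at 4 weeks, at 138.1. A probe set outside the list, described as mast cell protease 10, had 441.0 with no fracture, 10.2 and 13.1 early, a signal under the floor at 2 weeks, and 378.8 and 445.2 late (at least 4.11-fold, 2.04 ± 0.33, limma adjusted p = 0.00651). Unlike the other 4, it stood at the no fracture level late.

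Of 7 neutrophil genes tested 2 were up-regulated, where 2.03% of all probe sets were. Both were defensins, and their late arrays lay below the no fracture level. The list median was 3.04, with 6 positive differences, and neither was called with a floor of 200. The negative one was Anxa1, annexin A1, which neutrophils share with many cells, with 2624.1 and 1266.9 early and 834.2 and 889.0 late (-1.08 ± 0.40, limma adjusted p = 0.178). RatNP-3b, a neutrophil defensin, had 21286.8 with no fracture, 376.4 at 3 days, 1449.2 at 1 week, 230.3 at 2 weeks, 4837.6 at 4 weeks, and 14281.6 at 6 weeks (11.3-fold, 3.49 ± 0.74, limma adjusted p = 0.0293). Defa5, another defensin, had 4155.1, 120.3, 163.0, 32.4, 694.6, and 1902.5 (8.21-fold, 3.04 ± 0.58, limma adjusted p = 0.0171). For both, 2 weeks was lower than either early array, and 6 weeks was higher than 4 weeks. Both lost the call without the 3 days array and without the 6 weeks array, with limma adjusted p-values of 0.104 to 0.332.

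S100a8 and S100a9, calcium-binding proteins that fill neutrophils, followed the same order but differed more between the late arrays. S100a8 had 10117.6 with no fracture, 254.0 and 246.0 early, 158.9 at 2 weeks, and 1441.7 and 7980.5 late (3.76 ± 0.99, limma adjusted p = 0.0743). Over the list the late arrays lay 1.36 on the log2 scale below the no fracture array at the median, and 6 weeks lay 1.56 above 4 weeks.

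**Figure D1:**
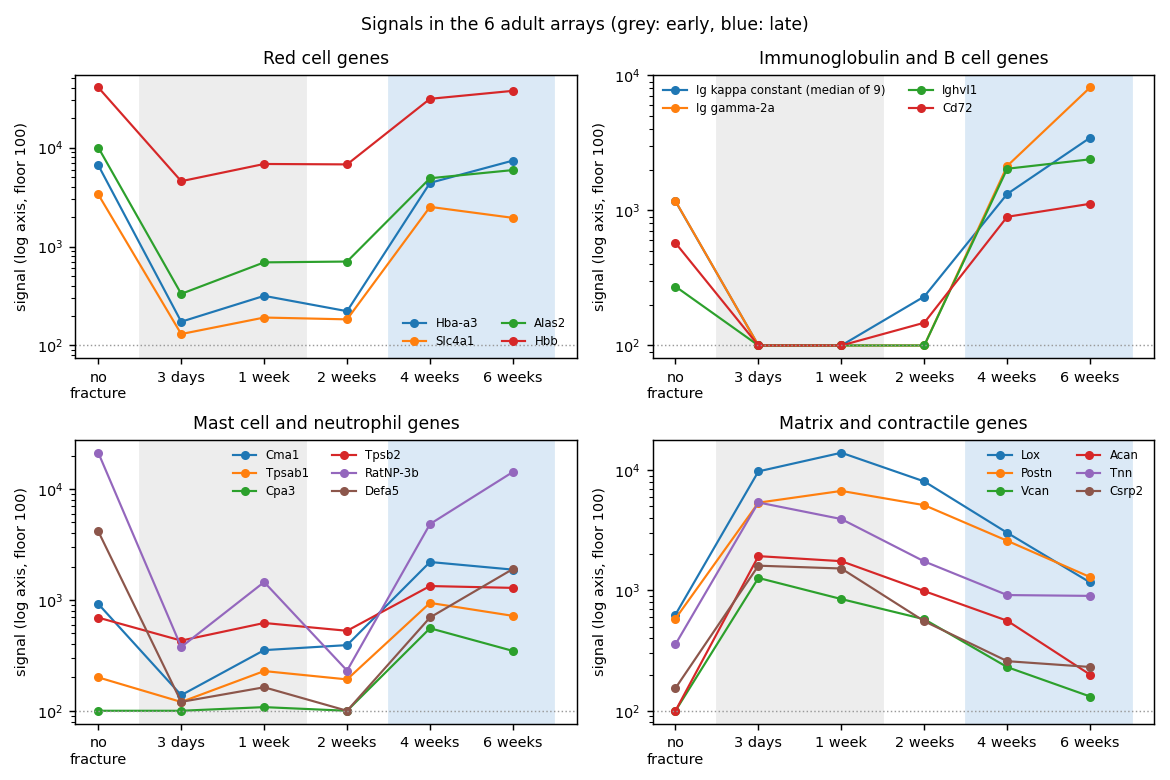
Signals (log axis, arbitrary intensity units, values under 100 drawn at 100) of named genes on each of the 6 adult arrays, 1 array per point, with the early arrays on grey and the late arrays on blue. Red cell, immunoglobulin, B cell, mast cell, and neutrophil genes were low at 3 days to 2 weeks and high at 4 and 6 weeks, while Lox, Postn, Vcan, Acan, Tnn, and Csrp2 ran from high to low.

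Other up-regulated genes belong to lipid and interferon pathways. Alox15, a lipoxygenase of arachidonic acid, had 1557.7 with no fracture, 65.9 at 3 days, 71.8 at 1 week, 132.6 at 2 weeks, 1398.5 at 4 weeks, and 1562.4 at 6 weeks. The mean of the late arrays differed from the no fracture array by -0.08 on the log2 scale, and the rise was at least 14.8-fold (3.89 ± 0.51, limma adjusted p = 0.00171). Rsad2 encodes viperin, an interferon-induced antiviral protein. It had 7036.2, 84.1, 320.7, 190.8, 3293.0, and 4536.2 (at least 21.6-fold, 4.43 ± 0.53, limma adjusted p = 8.76e-04). It was the 1 call among 20 genes of antigen presentation and interferon response, whose median difference was 0.11. Mx1, also induced by interferon, gave -0.52 ± 0.64 (limma adjusted p = 0.682).

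G0s2, an inhibitor of the main triglyceride lipase of fat cells, had 424.1, 31.5, 53.3, 615.6, 623.2, and 762.6 (at least 6.89-fold, 2.79 ± 0.53, limma adjusted p = 0.0166). It differs from the genes above in that 2 weeks already stood at the late level. Cfd, the adipsin gene of fat cells, had 1583.3, 480.8, 914.1, 1083.1, 2128.3, and 3294.7 (2.00 ± 0.37, limma adjusted p = 0.0152), and was the 1 call of 18 fat cell and lipid genes, with a median of 0.37. Without the 3 days array the limma adjusted p was 0.0821 for G0s2 and 0.111 for Cfd, and without the 6 weeks array 0.183 and 0.222. G0s2 also lost the call without the 4 weeks array (limma adjusted p = 0.0866). Vcam1, an adhesion molecule for white cells, rose from 130.1 and 86.9 to 477.8 and 386.4, at least 3.77-fold (1.91 ± 0.31, limma adjusted p = 0.00651), while its other probe set gave 1.07 and was not called. Without the 4 weeks array its adjusted p by limma was 0.0810. It was the 1 call of 25 genes of chemokines and inflammation, whose median was 0.05. That list did not hold Cxcl14, a chemokine, which rose from 352.3 and 557.3 to 1619.8 and 2319.5 (2.13 ± 0.34, limma adjusted p = 0.00618) and was called in both its probe sets. Nor did it hold Cxcr1, a chemokine receptor of neutrophils, which rose from 163.6 and 83.9 to 447.5 and 378.5, at least 3.22-fold (1.69 ± 0.36, limma adjusted p = 0.0286). At 2 weeks the Cxcr1 signal was already 435.6. When 1 adult array was left out, Cxcr1 kept its call only without 3 days. Both Cxcl14 probe sets lost the call without the 3 days or the 6 weeks array.

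Myl2 and Ckmt2, genes of skeletal muscle, were up-regulated late and had their lowest signals at 3 days. Myl2, the slow regulatory myosin light chain, had 21029.1 with no fracture, 603.0 at 3 days, 2093.7 at 1 week, 10872.8 at 2 weeks, 10596.1 at 4 weeks, and 13563.8 at 6 weeks (10.7-fold, 3.42 ± 0.69, limma adjusted p = 0.0230). All 3 Myl2 probe sets were called. Ckmt2, the mitochondrial creatine kinase of striated muscle, had 9246.7, 369.5, 687.4, 3292.0, 3853.5, and 5356.4 (9.01-fold, 3.17 ± 0.58, limma adjusted p = 0.0144). A second Ckmt2 probe set was also called, at 3.65 ± 0.59 (limma adjusted p = 0.00649). When 1 adult array was left out, the Myl2 and Ckmt2 probe sets with signals given here kept their calls only without 1 week. Without the 3 days array the rise was 2.52 for Myl2 and 2.72 for Ckmt2, and without the 1 week array 4.31 and 3.62.

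Ckmt2 was the only call among 32 genes of mature fast muscle, although 30 of the 32 differences were positive and 27 had late arrays above both early arrays (84.4%, against 26.0% of all probe sets). The median difference was 1.46. At the median the list lay 2.01 on the log2 scale below the no fracture array early, 0.53 below it at 2 weeks, and 0.50 below it late. The 3 days array lay 1.79 on the log2 scale below the 1 week array at the median, and this spread enters the error. Pvalb, parvalbumin of fast fibers, had 267.8 at 3 days, 2921.4 at 1 week, and 11105.9 and 10311.1 late (3.60 ± 1.21, limma adjusted p = 0.149). Against the 3 days array alone, 24 of the 32 were called higher, where 4.05% of all probe sets were called higher and 3.21% lower. Against the 1 week array alone, no gene of the list was called. As the segment is not described as holding muscle, the amount of muscle on each array was not known and its part was not tested.

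Chrna1, the alpha subunit of the muscle acetylcholine receptor, had 437.8 with no fracture, 706.3 at 3 days, 2726.8 at 1 week, 509.7 at 2 weeks, 186.1 at 4 weeks, and 295.4 at 6 weeks (5.92-fold lower, -2.57 ± 0.58, limma adjusted p = 0.0373). Its peak stood at 1 week, and it lost the call without the 1 week, the 4 weeks, or the 6 weeks array (limma adjusted p = 0.0793, 0.212, and 0.168). Of 21 slow and embryonic muscle genes Myl2 was up-regulated and Chrna1 down-regulated, with a median of -0.36. Against the 3 days array alone 3 of the 21 were called higher and none lower, and the median was 0.29. Myh3, the embryonic myosin heavy chain, was 18600.1 at 1 week and 6762.5 and 5524.5 late, but 3353.0 at 3 days, and was not called (limma adjusted p = 0.835).

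Of 6 osteoclast genes tested only Car2, the carbonic anhydrase that osteoclasts share with red cells, was called. It had 4461.0 with no fracture, 184.1 at 3 days, 796.0 at 1 week, 1113.2 at 2 weeks, 4106.1 at 4 weeks, and 4027.2 at 6 weeks (10.6-fold, 3.41 ± 0.64, limma adjusted p = 0.0152). Its high level with no fracture set it apart from the other members, and it kept its call only without the 1 week array. All 6 differences were positive, with a median of 2.08.

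Ctsk, the collagen-degrading cathepsin K, had 311.2 with no fracture, 2339.2 at 3 days, 8047.2 at 1 week, 14668.7 at 2 weeks, and 13664.5 and 13552.2 late (1.65 ± 0.59, limma adjusted p = 0.167). Acp5, the acid phosphatase that marks osteoclasts, had 454.7, 479.5, 4594.2, 9940.6, 9065.3, and 9044.6 (2.61 ± 1.00, limma adjusted p = 0.187). The late arrays were level with each other, and 3 days was near no fracture for Acp5. Mmp9 gave 2.5 ± 1.25 (limma adjusted p = 0.288). Against the 3 days array alone, 4 of the 6 genes were called higher, where 4.05% of all probe sets were.

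Mmp13, the collagenase of hypertrophic cartilage and bone, had 244.7 with no fracture, 2387.1 at 3 days, 2658.4 at 1 week, 7941.7 at 2 weeks, 7285.6 at 4 weeks, and 7197.8 at 6 weeks. Its early arrays agreed, and the rise of 1.52 ± 0.29 was called (limma adjusted p = 0.0183). Among the 4 fits without an array it was called only without 1 week. The late arrays stood 4.89 on the log2 scale above no fracture. Of 23 matrix proteases and inhibitors it was the only one called, and 17 of the 23 differences were negative. Timp1, an inhibitor of these proteases, had 6248.1 and 4183.0 early and 2570.5 and 2911.8 late (-0.90 ± 0.34, limma adjusted p = 0.178).

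Cartilage genes did not share 1 time course. Acan, the aggrecan core protein, had 14.1 with no fracture, 1927.9 at 3 days, 1750.7 at 1 week, 987.6 at 2 weeks, 560.2 at 4 weeks, and 199.6 at 6 weeks (5.49-fold lower, -2.46 ± 0.51, limma adjusted p = 0.0259). Fmod, fibromodulin, fell from 1937.4 and 2394.0 to 842.1 and 655.5 (-1.54 ± 0.36, limma adjusted p = 0.0434). These 2 of 7 genes were called, where 0.750% of all probe sets were called lower. Fmod lost the call whichever of the 4 arrays was left out. Col2a1, the type II collagen of cartilage, peaked at 2 weeks, with 47.8, 951.9, 7034.1, 11010.4, 6688.2, and 2110.7, so that its late and early arrays overlapped (0.54 ± 1.53, limma adjusted p = 0.875). Col10a1, the collagen of hypertrophic cartilage, had 32.1 at 3 days, 922.3 at 1 week, 3112.9 at 2 weeks, 912.3 at 4 weeks, and 281.4 at 6 weeks (0.74 ± 1.29, limma adjusted p = 0.787).

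**Figure D2:**
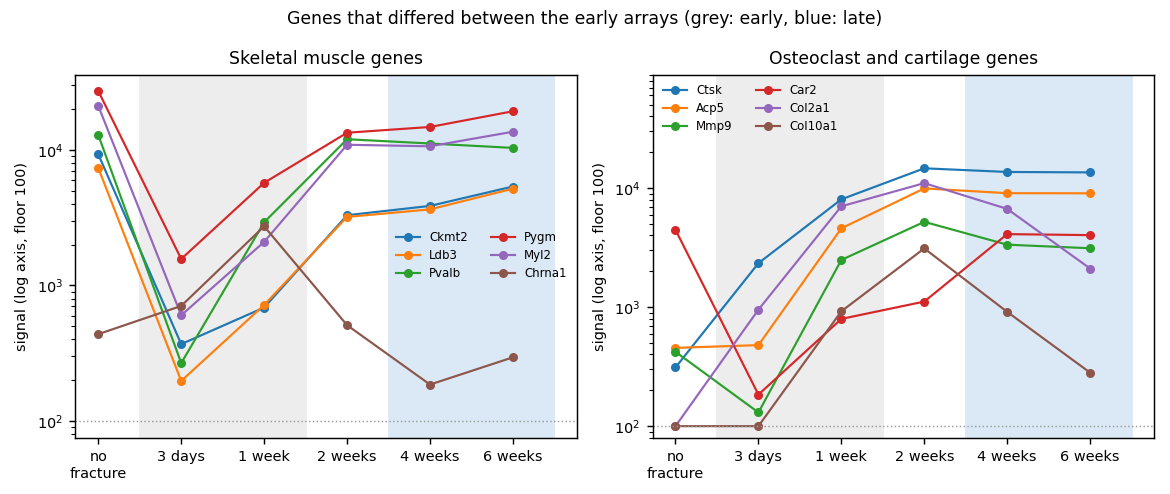
Signals (log axis, arbitrary intensity units, values under 100 drawn at 100) of skeletal muscle, osteoclast, and cartilage genes on each of the 6 adult arrays, with the early arrays on grey and the late arrays on blue. Pvalb, Acp5, Mmp9, and Col2a1 lay far apart at 3 days and 1 week, and Chrna1, Col2a1, and Col10a1 peaked at 1 or 2 weeks.

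Osteoblast and bone matrix genes were high both early and late. None of 13 was called by limma at an adjusted p under 0.05 (median -0.18), and none of them was called without any 1 of the 4 arrays, while with time terms shared by the ages 1 was called higher and 1 lower, where 6.25% and 5.14% of all probe sets were. At the median the late arrays stood 1.26 on the log2 scale above the no fracture array. Spp1, osteopontin, had 599.1 with no fracture, 7069.9 and 7727.7 early, 8597.2 at 2 weeks, and 7648.8 and 5886.6 late (-0.14 ± 0.24, limma adjusted p = 0.785). Bglap was 11081.8 with no fracture, 5206.8 and 11489.4 early, and 12912.6 and 20276.5 late (1.06 ± 0.50, limma adjusted p = 0.262). Its 3 days signal thus lay below the no fracture level.

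The genes that fell late included those of fibrous matrix and of collagen cross-linking. Lox, lysyl oxidase, which cross-links collagen and elastin, had 630.4 with no fracture, 9758.1 at 3 days, 13942.3 at 1 week, 8049.8 at 2 weeks, 3013.8 at 4 weeks, and 1165.1 at 6 weeks (6.22-fold lower, -2.64 ± 0.53, limma adjusted p = 0.0225). Of 4 Lox probe sets a second was called, at -2.58, and the others gave -1.84 and -1.35 with limma adjusted p-values of 0.0686 and 0.0525. Vcan, the large proteoglycan versican, had 94.0, 1270.3, 848.0, 576.5, 230.6, and 131.4 (5.96-fold lower, -2.58 ± 0.46, limma adjusted p = 0.0115). Both genes were still falling between 4 and 6 weeks.

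Postn, periostin, had 583.3 with no fracture, 5362.2 and 6715.5 early, 5112.8 at 2 weeks, and 2586.6 and 1291.3 late (3.28-fold lower, -1.72 ± 0.39, limma adjusted p = 0.0416). Col5a1, which starts fibrils of type I collagen, fell by 1.17 ± 0.27 on the log2 scale (limma adjusted p = 0.0431) and remained 1.97 above no fracture. Col5a1 lost the call whichever of the 4 arrays was left out. Of 16 fibrous matrix genes 13 had negative differences (median -0.65). Vcan, Postn, and Col5a1 were the 3 calls of the 16, where 0.750% of all probe sets were called lower. The chains of type I collagen did not follow them. Col1a1 had 18674.4 and 42694.5 early and 29523.8 and 37711.4 late (0.24 ± 0.36, limma adjusted p = 0.746).

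Tnn, the matrix protein tenascin N, fell from 5383.8 and 3919.4 to 915.4 and 901.1, with 1742.1 at 2 weeks (5.06-fold lower, -2.34 ± 0.48, limma adjusted p = 0.0233). P3h4, a partner of enzymes that modify collagen, fell from 3202.4 and 2744.2 to 670.4 and 615.8 (-2.21 ± 0.46, limma adjusted p = 0.0276). Its second probe set gave -1.23 and was not called. Among 10 genes of collagen modification and cross-linking Lox was the call, 9 differences were negative, and the median was -1.16. Serpinh1, the collagen chaperone, had 14543.9 and 10169.4 early and 5443.1 and 4020.4 late (-1.38 ± 0.45, limma adjusted p = 0.137).

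Csrp2 and Pdlim5, which encode LIM proteins, were also down-regulated. Csrp2, a LIM protein of smooth muscle, had 154.3 with no fracture, 1606.1 at 3 days, 1521.6 at 1 week, 555.0 at 2 weeks, 258.4 at 4 weeks, and 231.2 at 6 weeks. It had the largest fall of a named gene, 6.40-fold (-2.68 ± 0.48, limma adjusted p = 0.0119), and was the 1 call of 11 smooth muscle and contractile genes (median -1.0). Pdlim5, a LIM protein bound to actin filaments, had 156.9, 596.6, 965.9, 684.2, 179.2, and 159.2 (-2.17 ± 0.30, limma adjusted p = 0.00284). Its dimmer probe set gave -1.28 and was not called (limma adjusted p = 0.0689).

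Glg1, a glycoprotein of the Golgi, fell from 626.0 and 914.3 to 170.8 and 158.7 in 1 probe set (-2.20 ± 0.31, limma adjusted p = 0.00313). A brighter probe set of Glg1 gave -0.56 ± 0.32 (limma adjusted p = 0.355), so the probe sets disagreed. Pdlim5 and this Glg1 probe set were the 2 down-regulated ones called in all 4 fits without an array. The other 13 of the 15 lowest named genes all lost the call without the 6 weeks array, with limma adjusted p-values of 0.0825 to 0.401. All of them except Chrna1 also lost it without the 3 days array, at 0.0685 to 0.279.

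Other down-regulated genes had varied functions. Cdkn1a, the cell cycle inhibitor p21, had 105.8 with no fracture, 725.5 and 389.0 early, 205.6 at 2 weeks, and 112.8 and 101.2 late (4.97-fold lower, -2.31 ± 0.54, limma adjusted p = 0.0431). It was the 1 call of 29 cell division genes (median -0.13), and it restrains division. Fos, an early response transcription factor, fell from 1292.4 and 719.5 to 240.9 and 276.5 in 1 probe set (-1.90 ± 0.44, limma adjusted p = 0.0424). Its brighter probe sets gave -0.86 and -1.34 and were not called, so Fos does not count among the calls of its list, which had none of 26.

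Cyp51, an enzyme of cholesterol synthesis, fell from 1425.6 and 818.3 to 305.1 and 271.7 (-1.91 ± 0.38, limma adjusted p = 0.0201), and 2 of its 4 probe sets were called. Nedd4, a ubiquitin ligase, fell from 1956.7 and 2539.7 to 757.2 and 543.2 (-1.80 ± 0.42, limma adjusted p = 0.0479). Rrad, a small GTPase of muscle, fell from 3903.0 and 2872.9 to 867.1 and 1188.8 (-1.72 ± 0.33, limma adjusted p = 0.0183). The mean of the late arrays for Cyp51, Nedd4, and Rrad lay within 0.44 on the log2 scale of no fracture.

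Other lists had no call, although most of their differences had the same sign. Of 25 genes of the secretory pathway 24 had negative differences (median -1.03), and both late arrays lay below both early arrays for 23 (92.0%, against 24.2% of all probe sets). Hspa5, the main chaperone of the endoplasmic reticulum, had 5447.9 at 3 days, 2460.7 at 1 week, and 1538.3 and 1464.4 late (-1.29 ± 0.37, limma adjusted p = 0.0982). Against the 3 days array alone 8 of the 25 were called lower, where 3.21% of all probe sets were. Of 36 ribosomal protein genes 31 had negative differences (median -0.28), and of 38 genes of oxidative phosphorylation 36 had positive ones (median 0.58). With time terms shared by the ages 1 ribosomal protein gene and 5 of oxidative phosphorylation were called higher, where 6.25% of all probe sets were. In that fit 15 secretory pathway genes were called lower, where 5.14% of all probe sets were. Without the 1 week array the medians were -0.2 for ribosomal protein genes and 0.63 for oxidative phosphorylation.

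Macrophage, endothelial, neuron, Schwann cell, glycolysis, and growth factor lists had no call either, with medians between -0.37 and 0.48. Against the 3 days array alone the glycolysis median was 0.04. For 7 of the 14 glycolysis genes both late arrays lay above both early arrays, and for 6 both lay below. The same held for 26.0% and 24.2% of all probe sets. The glycolysis medians therefore cover changes in both directions. Lgals3, galectin-3 of macrophages, had 3531.5 and 2783.7 early and 1101.9 and 1333.6 late (-1.37 ± 0.43, limma adjusted p = 0.127). With time terms shared by the ages 2 of 12 macrophage and 4 of 24 growth factor genes were called lower, where 5.14% of all probe sets were. In that fit 5 of 14 glycolysis and 2 of 11 Schwann cell genes were called higher, where 6.25% of all probe sets were.

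Most up-regulated probe sets had fallen below the no fracture level after fracture. Of the 95, 75 were more than 1 on the log2 scale below the no fracture array early and 62 were still so at 2 weeks. Late, 63 lay within 1 of it, 22 lay above, and 10 lay below. At 2 weeks 24 of the 95 were nearer to the late than to the early mean. Of the 35 down-regulated probe sets 34 were more than 1 above no fracture early and 25 at 2 weeks. Late, 23 were within 1 of it and 11 were still above. At 2 weeks 19 of the 35 were nearer to late. The no fracture level and the 2 weeks level are single arrays, and these positions were not tested.

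**Figure D3:**
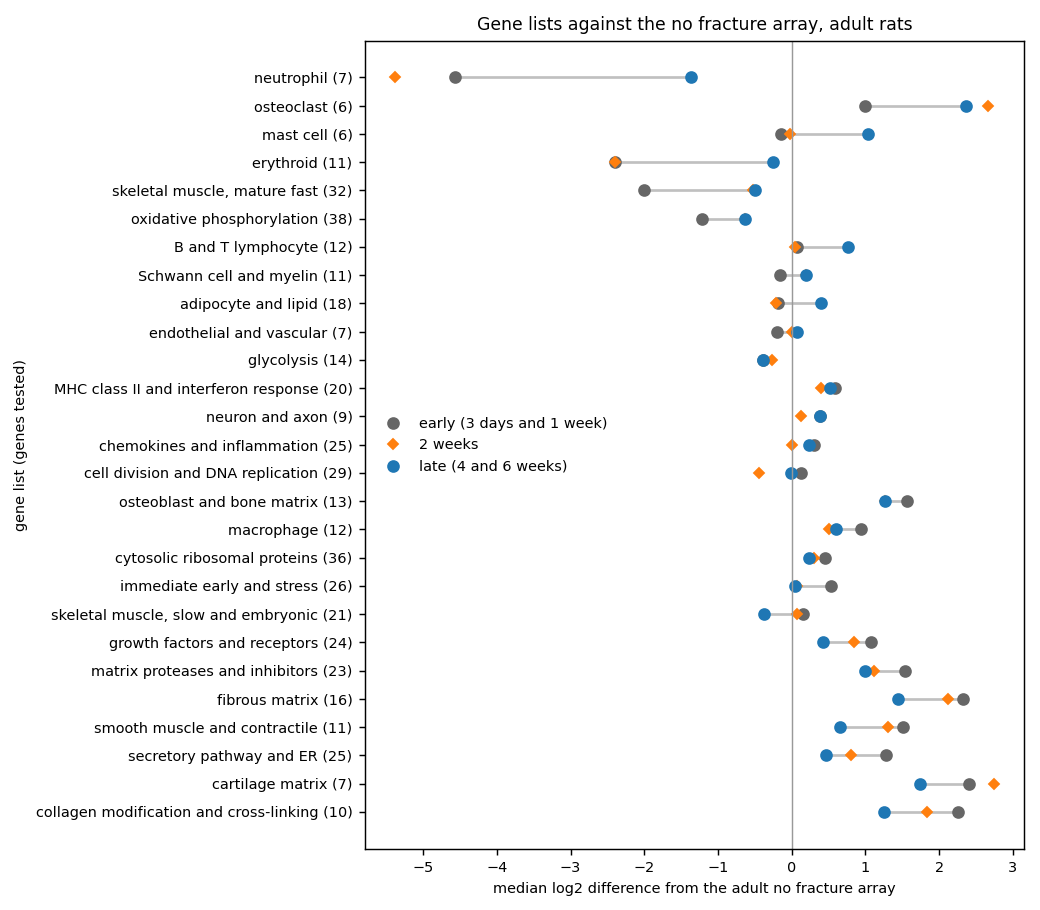
Median log2 difference from the adult no fracture array of the genes tested in each of the 27 lists, for the mean of the 2 early arrays, the 2 weeks array, and the mean of the 2 late arrays, in order of the late minus early median. The red cell list moved from -2.40 early to -0.25 late and the neutrophil list stopped at -1.36, while the cross-linking list was 2.26 above no fracture early and 1.25 above it late.

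The same comparison was made in young and older rats, with 4 arrays each. In young rats 122 probe sets (2.61%) were up-regulated and 79 (1.69%) down-regulated, and in older rats 86 (1.84%) and 21 (0.450%). Of the 95 up-regulated in adult rats, 61 were also called in young rats (64.2% of 95 and 50% of 122) and 65 in older rats (68.4% of 95 and 75.6% of 86). Of the 35 down-regulated, 19 were called in young rats (54.3% of 35 and 24.1% of 79) and 9 in older rats (25.7% of 35 and 42.9% of 21). At all 3 ages 54 were up-regulated and 8 down-regulated.

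No probe set differed between adult and young rats, or between adult and older rats, in its late minus early change (0% of those tested in both). The limma interaction had a lowest adjusted p of 0.999 in both. At an unadjusted p under 0.05 there were 130 and 95 probe sets. In either, fewer passed than that threshold passes on average among 4669 probe sets without any difference. Without the filter on low signals 4 and 12 were called, and without the young 6 weeks array 0 and 1. A lack of calls does not show that the ages acted alike.

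Among the 30 named genes Hba-a3 (4.24 in young, 4.60 in adult, and 4.37 in older rats), Rsad2 (4.51, 4.43, and 4.49), and Csrp2 (-2.57, -2.68, and -2.60) had close values at the 3 ages. The second called probe set of Rsad2 gave 3.86, 3.11, and 3.56 in the same order. Alox15 gave 1.60 in young, 3.89 in adult, and 2.68 in older rats, and the difference of adult from young was 2.28 ± 0.72 (limma unadjusted p = 0.00858, adjusted p = 0.999). A second called Alox15 probe set gave 2.88, 3.44, and 2.81, with 0.55 ± 0.63 for adult minus young (limma unadjusted p = 0.395, adjusted p = 0.999). Defa5 gave 2.31, 3.04, and 0.90, and the difference of adult from older was 2.14 ± 0.82 (limma unadjusted p = 0.0231, adjusted p = 0.999). Mmp13 gave 0.28 in young, 1.52 in adult, and 1.56 in older rats (adult minus young, limma unadjusted p = 0.0119, adjusted p = 0.999). None of these differences passed the adjustment.

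The osteoclast list had a median of -0.14 in young rats, 2.08 in adult rats, and 2.67 in older rats, and the cartilage list -1.56, -1.07, and 0.17. Acan gave -3.09, -2.46, and -0.90 (adult minus older, limma unadjusted p = 0.0523, adjusted p = 0.999). The median of the neutrophil list was 2.07 in young, 3.04 in adult, and 0.90 in older rats, and that of the fast muscle list was 0.85, 1.46, and 0.59.

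**Figure D4:**
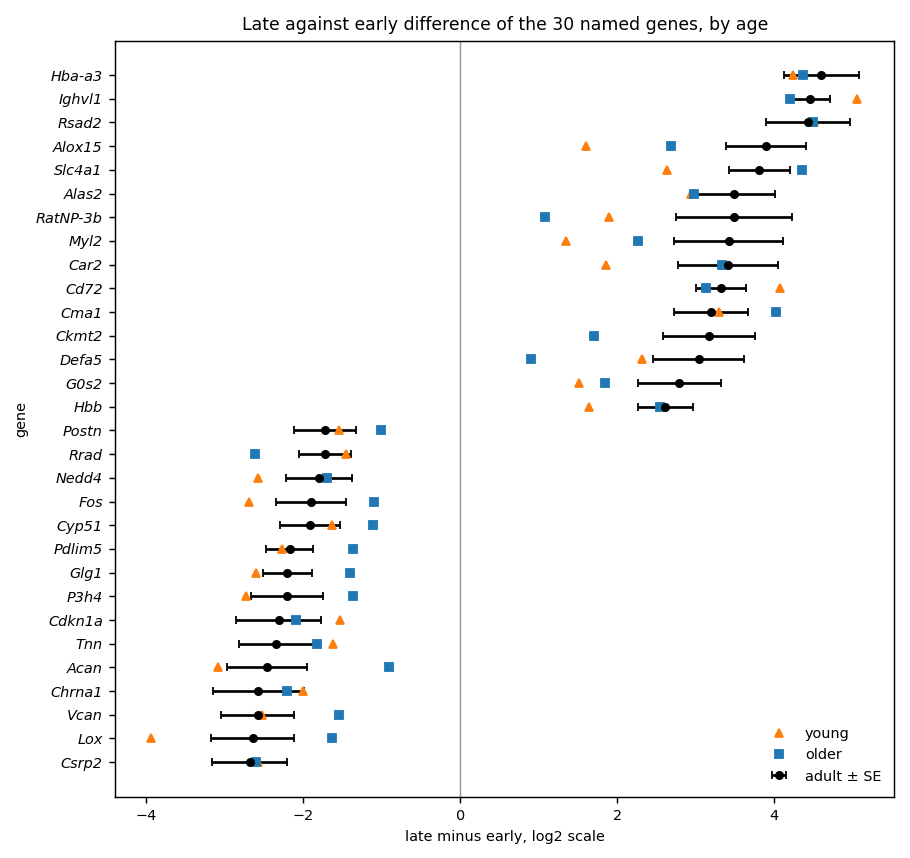
Late minus early difference on the log2 scale of the 30 named genes in adult rats (black, ± SE), young rats (orange triangles), and older rats (blue squares). All 30 had the same direction at the 3 ages, and RatNP-3b, Defa5, Alox15, and Myl2 were among those whose adult value was the highest.

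**Figure D5:**
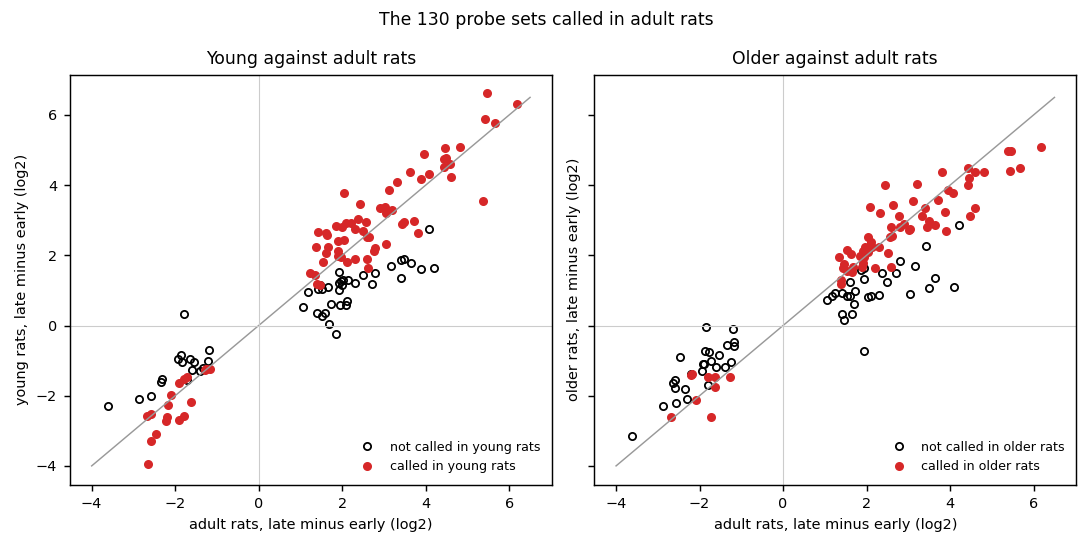
Late minus early difference on the log2 scale of the 130 probe sets called in adult rats, against that in young rats and older rats, with probe sets also called at the other age in red and equal change on the line. Of the 95 higher in adult rats 94 were positive in young and 94 in older rats, and of the 35 lower 34 were negative in young and 35 in older rats.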

How the data were processed

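The authors hybridised RNA of 2 pooled rats per array to Affymetrix rat arrays and deposited intensity values made with Microarray Suite 5.0, scaled to an average of 500. Gene symbols came from the platform annotation. Of 8799 probe sets 59 were controls, 7018 had 1 symbol (6994 updated by gene ID), 308 had several, and 1473 had none. For 17 called probe sets without 1 symbol the probe descriptions of the study were used. The deposited intensities were raised to a floor of 100 and log2 transformed, and probe sets reaching 200 on 3 of 18 arrays were kept (4669, with 2886 genes). Groups were each age at no fracture, early, 2 weeks, and late. limma 3.58.1 in R 4.3.3 (lmFit, eBayes with trend, residual degrees of freedom 6) was fitted over 18 arrays, with Benjamini-Hochberg adjustment at 0.05, and was tested on simulated data. Python 3.11.15, pandas 2.3.3, and matplotlib 3.10.9 were used for the rest. The arrays of a group differ in time, so p-values measure the spread between these arrays, time included, and the number of arrays limits the precision.

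Named genes were the 15 highest and the 15 lowest called among those that carried 1 symbol, reached 500 on average in the brighter group, and had groups that did not overlap, and up to 4 called members of each of 27 lists. Other genes are named where a list is described and were chosen with their values known. For a gene with several probe sets the brightest stood for it in the lists. The lists and the comparison were chosen with earlier results of these data known. Folds are ratios of geometric means, with signals under the floor raised to it, and are then given as lower bounds. Alternatives were other floors, filters, normalizations, moderation, and arrays in the fit, 1 probe set per gene, an equal-variance t-test, and leaving out arrays.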

Additional observations from a re-analysis of the deposited data

How the results depend on the processing

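Against the 130 adult calls (95 higher, 35 lower), a floor of 200 gave 67 (58 and 9), no filter on low signals 28 (23 and 5), and the 4 adult arrays alone 24 (21 and 3). Time terms shared by the ages gave 532 (292 and 240), and 1 probe set per gene, with fewer probe sets tested, gave 75 (54 and 21). An equal-variance t-test of the 2 late against the 2 early adult arrays gave 126 (86 and 40) at an unadjusted p under 0.01. After Benjamini-Hochberg it gave 2 (2 and 0), and kept 0 of the 130 and none of the 41 named genes. Leaving out 1 adult array gave 38 to 339 calls, and 9 to 85 list members called against 29. For the difference of adult from young rats against 0, no filter gave 4 (3 and 1). For adult from older rats against 0, no filter gave 12 (5 and 7), and leaving out the young 6 weeks array gave 1, Nos2. Apart from the shared time terms, the arrays in the fit, and the number of probe sets tested, the cause was not tested. The other floors, filters, normalizations, and moderation gave 110 to 132 adult calls. None of 41 named genes reversed. Of these, 8 were still called without a filter, 10 with the 4 adult arrays alone, 25 with a floor of 200, 31 without the young 6 weeks array, and 14 without the adult 6 weeks array. No paired analysis was possible because rats were euthanized at each time, so no rat gave RNA both early and late. Signals under 100 were not resolved.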
